A study of Mus musculus with 28 samples.

Results

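Cyp2b10, Cyp2b13, Cyp3a13, Cyp3a25 and Cyp3a41a are 5 cytochrome P450 genes of the mouse liver, each with 1 probe of 3 spots among the 120 gene probes of a focused 2-colour array. They were taken by gene name from the scanner files and the platform's probe table, in which Cyp3a41a carries the older symbol Cyp3a41. All other gene probes served as background for the tests. Every animal was a female C57BL/6 mouse aged 8 to 10 weeks. The adefovir group (5 animals) received 25 mg/kg adefovir dipivoxil by intraperitoneal injection on 3 days, and the tenofovir group (5 animals) 25 mg/kg tenofovir disoproxil in the same way; both are prodrugs of acyclic nucleotide analogues used against viruses. In the positive control, also treated on 3 days, 4 animals were given 60 mg/kg phenobarbital and, on day 2, 1 dose of 80 mg/kg β-naphthoflavone. The response to phenobarbital and that to β-naphthoflavone therefore cannot be told apart in this group. Liver RNA came from day 4, with 24 hours between the last injection and collection. The other channel of all 28 arrays held 1 RNA pool of saline-injected mice, said to come from 10 animals in the sample descriptions and from a group of 5 in the treatment protocol. Since that pool is a single control sample, tests against it leave out the spread between saline animals.

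Cyp2b and Cyp3a enzymes oxidise drugs and steroids, and their genes are the textbook targets of 2 nuclear receptors, CAR (gene Nr1i3) and PXR (gene Nr1i2). Both receptors bind DNA as partners of RXR, at paired copies of a short half-site, and phenobarbital is the classic activator of CAR. Cyp2b10 is the main phenobarbital-inducible P450 of mouse liver, and Cyp2b13 is a related gene expressed mainly in females. Cyp3a13 is a Cyp3a gene that lies apart from the main Cyp3a cluster, Cyp3a25 is a member of that cluster, and Cyp3a41a is a Cyp3a gene expressed mainly in female liver. β-Naphthoflavone acts through another receptor, the aryl hydrocarbon receptor, whose usual targets are the Cyp1 genes.

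The sequences below are the RefSeq windows around the transcription start (build GRCm38.p6, 250 bases before to 50 after) of 4 of the 5 genes, shown because they compare the pair with the highest ratios after the positive control with a pair of Cyp3a genes of the same cluster, of which 1 passed the test and 1 did not. Capitals mark matches on either strand to the nuclear receptor half-sites AGGTCA and AGTTCA, to TATAAA and to GCGTG, the core of the aryl hydrocarbon receptor site. The windows are chr7:25897408-25897707 on the plus strand for Cyp2b10, chr7:26061245-26061544 on the plus strand for Cyp2b13, chr5:146009569-146009868 on the minus strand for Cyp3a25 and chr5:145720087-145720386 on the minus strand for Cyp3a41a.
Cyp2b10: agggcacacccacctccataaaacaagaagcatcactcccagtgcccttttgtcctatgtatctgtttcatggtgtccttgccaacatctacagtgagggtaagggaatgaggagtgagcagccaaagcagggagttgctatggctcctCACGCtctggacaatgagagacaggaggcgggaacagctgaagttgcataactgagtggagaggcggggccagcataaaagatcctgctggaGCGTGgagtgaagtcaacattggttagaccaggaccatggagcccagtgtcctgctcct
Cyp2b13: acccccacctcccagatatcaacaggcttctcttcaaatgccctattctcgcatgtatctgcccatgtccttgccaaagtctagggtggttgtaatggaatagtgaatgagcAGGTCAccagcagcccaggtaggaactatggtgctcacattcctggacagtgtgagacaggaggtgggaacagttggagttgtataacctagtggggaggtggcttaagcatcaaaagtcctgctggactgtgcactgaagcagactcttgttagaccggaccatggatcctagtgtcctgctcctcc
Cyp3a25: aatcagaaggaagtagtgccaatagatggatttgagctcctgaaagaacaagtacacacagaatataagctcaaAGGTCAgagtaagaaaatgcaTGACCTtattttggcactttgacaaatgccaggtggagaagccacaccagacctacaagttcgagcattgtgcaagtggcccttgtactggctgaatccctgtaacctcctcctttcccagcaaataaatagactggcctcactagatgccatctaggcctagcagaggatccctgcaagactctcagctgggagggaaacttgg
Cyp3a41a: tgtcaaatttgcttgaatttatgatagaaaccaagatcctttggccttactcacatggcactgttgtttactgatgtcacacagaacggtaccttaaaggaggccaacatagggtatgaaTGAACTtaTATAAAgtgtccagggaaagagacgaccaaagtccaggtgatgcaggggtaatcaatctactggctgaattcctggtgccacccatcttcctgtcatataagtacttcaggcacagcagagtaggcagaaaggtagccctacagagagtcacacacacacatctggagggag
The Cyp2b10 window held GCGTG on both strands, at -101 and -9 from the start (position of the leftmost base), and neither half-site. Cyp2b13 held AGGTCA at -138, and Cyp3a25 held it at -176 and, on the other strand, at -155. Cyp3a41a held AGTTCA on the other strand at -130 and TATAAA at -122, with 2 bases between them. The window of Cyp3a13, not printed, held none of the 4 motifs. Of all 32851 promoter windows in the table, 16.3% held AGGTCA, 14% AGTTCA, 13.6% TATAAA and 32.4% GCGTG. These matches are letters in a short window, and the phenobarbital-responsive enhancer of Cyp2b genes is known to lie farther upstream. Aligned end to end, the windows of Cyp2b10 and Cyp2b13 were 72.9% identical, against 55% for Cyp3a25 and Cyp3a41a. Those of Cyp3a41a and its close relative Cyp3a41b, which was not among the probes, were 97% identical. Probe sequences were not used here, and signals of such close relatives, Cyp2b10 and Cyp2b13 included, are uncertain because a probe may bind both transcripts.

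All 5 genes gave a measurable signal in saline-treated liver. On the 20 arrays of the antiviral animals the saline channel stood above background for every member on 20 of 20 arrays, a probe being above background when at least 2 of its 3 spots exceeded the local background by 2 SDs. In Cy3, where 10 arrays carried the saline pool, the background-subtracted saline signal of Cyp2b10 ranged from 905 to 2393 scanner units with a median of 1377. The same measure was 893 to 2615 for Cyp2b13 (median 1579), 1096 to 3210 for Cyp3a13 (median 1534) and 863 to 2342 for Cyp3a25 (median 1569). For Cyp3a41a it was 8616 to 29202 (median 14481). In Cy5, on the other 10 arrays, the medians were 464 for Cyp2b10, 390 for Cyp2b13, 445 for Cyp3a13, 448 for Cyp3a25 and 4175 for Cyp3a41a. Scanner signals depend on the probe and the dye, so they describe the brightness of each probe and give no order of RNA levels between the genes. In whole tissue, fewer cells of a type and less RNA per cell cannot be told apart.

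On the 4 arrays of single positive-control animals the saline channel was always in Cy5, which the file headers mark as bad, and 9 to 29 of the 120 probes stood above background there, against 38 to 69 on antiviral arrays with the saline pool in Cy5. Among the members, saline Cyp2b10 was above background on 0 of these 4 arrays, Cyp2b13 on 1, Cyp3a13 on 2, Cyp3a25 on 1 and Cyp3a41a on 4. The treated channel was above background for all 5 on 4 of 4 arrays. Pooled RNA of the same 4 positive-control animals was hybridised on 4 other arrays, with the treated RNA in Cy3 on 2 and in Cy5 on 2. There both channels were above background for all members on 4 of 4 arrays. Among 9 hepatocyte markers 7 were measured. The saline channel of the 20 antiviral arrays was above background on 20 for Cyp2e1, Slc10a1, Abcb11 and Cyp27a1, on 18 for Cyp8b1, 17 for Hnf4a and 7 for Cyp7a1. Markers of cholangiocytes, Kupffer or immune cells, stellate cells and endothelium had no probe, so a share of those cells was not tested.

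**Figure D1:**
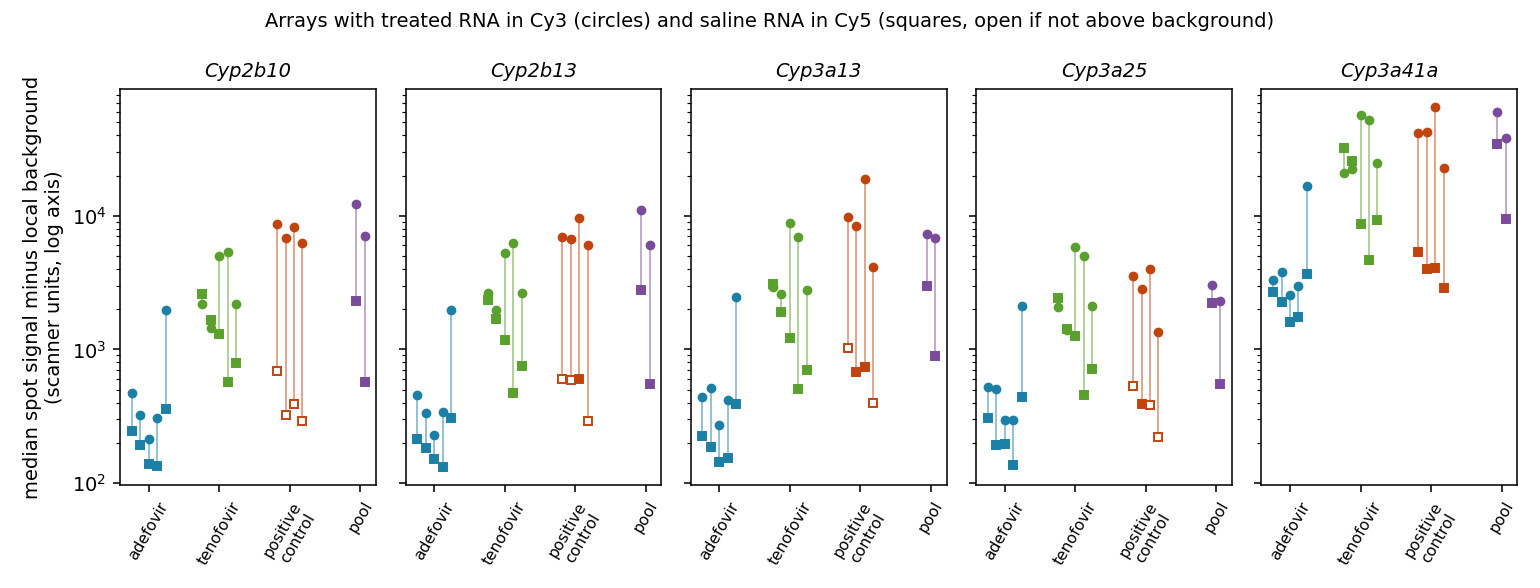
Background-subtracted median spot signal (scanner units, log axis) of the 5 probes on arrays with treated RNA in Cy3 (circles) and saline RNA in Cy5 (squares), joined for each array, by treatment group; open squares are saline signals not above background. In the positive control all 4 saline signals of Cyp2b10 are open and all 4 of Cyp3a41a are filled.

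After adefovir dipivoxil or tenofovir disoproxil, none of the 5 genes passed the test against saline. The values are log2 ratios of treated over saline after loess normalization, with the 2 dye orientations of an animal averaged, so that 1 unit is a doubling. Limma called 0 of 5 members in either group at an adjusted p under 0.05, where 1.67% of all 120 probes were called after adefovir and 1.67% after tenofovir. With 15 and 20 probes at an unadjusted p under 0.05 in the respective groups, the smallest unadjusted p among the members was 0.131, for Cyp3a41a after tenofovir.

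Cyp2b10 had log2 ratios of -0.22, -0.20, 0.00, 0.00 and 0.19 in adefovir animals 1 to 5. In tenofovir animals 1 to 5 they were -0.07, -0.19, -0.06, 0.15 and 0.13. The animals lay on both sides of 0 in each group and the groups overlapped. The group means were -0.05 ± 0.169 after adefovir (SD, n = 5, 95% interval -0.22 to 0.13) and -0.01 ± 0.146 after tenofovir (SD, n = 5, 95% interval -0.19 to 0.17). Cyp2b13 ran from -0.23 to 0.13 over the adefovir animals with a mean of -0.03, and from -0.20 to 0.08 over the tenofovir animals with a mean of -0.03. For the 2 Cyp2b genes, each antiviral group held animals above and below the saline pool.

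Among the Cyp3a genes, Cyp3a13 was above 0 in 4 of 5 adefovir animals (0.02 to 0.16) and at -0.40 in animal 1, for a mean of -0.01 ± 0.226 (SD, n = 5). After tenofovir it was -0.17, 0.01, 0.32, 0.06 and 0.14 in animals 1 to 5, with a mean of 0.07 ± 0.180 (SD, n = 5). Cyp3a25 ran from -0.33 to 0.25 after adefovir (mean -0.06) and from -0.17 to 0.23 after tenofovir (mean 0.05). Adefovir animal 1 had the lowest value of its group for Cyp2b10, Cyp3a13, Cyp3a25 and Cyp3a41a. Cyp3a41a had the widest range, -0.46, -0.07, 0.30, -0.07 and -0.04 in adefovir animals 1 to 5 and -0.44, -0.18, 0.12, -0.32 and 0.02 in tenofovir animals 1 to 5. Its means were -0.07 (95% interval -0.28 to 0.15) and -0.16 (95% interval -0.37 to 0.05, adjusted p = 0.434 by limma). Over the 15 alternative settings of processing, no member was called after either antiviral.

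Both antivirals are phosphonate analogues built on adenine; the side chain of tenofovir has 1 methyl group more than that of adefovir, and the prodrug groups differ as well. Given at the same dose by weight and at the same times, they did not differ past the threshold for any member. Limma called 0% of all 120 probes in this contrast, in which the saline pool cancels, and 3 probes had an unadjusted p under 0.05. The adefovir minus tenofovir difference was -0.04 for Cyp2b10 (95% interval -0.29 to 0.22), -0.01 for Cyp2b13 (-0.30 to 0.29) and -0.08 for Cyp3a13 (-0.45 to 0.30). It was -0.11 for Cyp3a25 (-0.36 to 0.15) and 0.09 for Cyp3a41a (-0.21 to 0.39), with an adjusted p of 0.983 for each. The intervals are the sizes of difference these 10 animals leave possible, and they do not show that the compounds act alike.

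In the positive control Cyp2b10, Cyp2b13, Cyp3a13 and Cyp3a25 rose, and Cyp3a41a did not pass the test. Limma called 4 of 5 members higher, where 21.7% of all 120 probes were called higher, and 0 of 5 lower, where 20% were called lower. The members' median log2 ratio was 0.86, against 0.00 for all probes. With arrays centred on the calibration spots, the luciferase spots or the Actb, Gapdh and Ppia probes in place of loess, the median of all probes moved by -0.59, -0.57 and -0.52, and 16, 18 and 19 probes were then called higher against 75, 80 and 77 lower. With centring on the array median 31 were higher and 10 lower. The same 4 members stayed called higher under each of these scalings, and Cyp3a41a then joined them.

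Cyp2b10, the main phenobarbital-inducible gene, had log2 ratios of 1.23, 1.60, 1.78 and 1.84 in positive-control animals 1 to 4. Every one of them lay above all 10 antiviral animals, whose highest value was 0.19. The share of all probes that separate in this way was not counted, here or for the genes below. Limma called 20% of all probes higher in the positive control than in the antivirals. The mean of Cyp2b10 was 1.61 ± 0.275 (SD, n = 4), with a pooled SE of 0.0938 and adjusted p = 6.66e-09 by limma. Here and below, the pooled SE and adjusted p come from the joint limma fit, which shares the spread of animals over all treatment groups. With the positive control fitted alone, the adjusted p of Cyp2b10 was 0.00011 by limma. Because the saline signal was not well above background on any of these 4 arrays, a lower bound of 2.32-fold was estimated for the rise. It has no sampling error attached and is not a guaranteed limit. That bound used, on each array, the higher of the saline Cyp2b10 level and the level of the dimmest saline probe above background. It is open to dye bias, as these arrays have 1 orientation only. On the pool arrays, where saline Cyp2b10 was above background, the log2 ratios were 2.04, 2.12, 2.06 and 1.92, with a mean over both orientations of 2.04 (4.10-fold).

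Cyp2b13 had log2 ratios of 0.86, 0.66, 1.12 and 1.56 in positive-control animals 1 to 4, again all above the highest antiviral animal, at 0.13. The mean was 1.05 ± 0.386 (SD, n = 4), a 2.07-fold rise, with a pooled SE of 0.109 and adjusted p = 1.53e-06 by limma. The SD was smaller after adefovir (0.151) and tenofovir (0.129). With the positive control fitted alone, the adjusted p was 0.00215 by limma. Saline Cyp2b13 was above background on 1 of these arrays. The pool arrays gave 1.61, 1.73, 1.80 and 1.75, a mean of 1.72 (3.30-fold). All 4 pool values lay above the 4 single animals, although the pool was made from those same animals. The same held for Cyp2b10, with a lowest pool value of 1.92 and a highest animal of 1.84. The pool arrays are repeats of 1 RNA pool and not further animals, so this difference has no test, and its cause was not tested. The ratio was 1.45 when the treated Cy3 signal was set against the saline Cy3 signal of the antiviral arrays and 1.78 with arrays centred on their median, and the gene stayed called in both.

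Cyp3a13 had log2 ratios of 0.59, 0.64, 1.58 and 0.62 in positive-control animals 1 to 4. Animal 3 stood far above the other 3, and all 4 lay above the highest antiviral animal, at 0.32. The mean was 0.86 ± 0.480 (SD, n = 4), or 1.81-fold, with a pooled SE of 0.139 and adjusted p = 0.000171 by limma. The SD was smaller after adefovir (0.226) and tenofovir (0.180). With the positive control fitted alone, the adjusted p was 0.00997 by limma. Saline Cyp3a13 was above background on 2 of the 4 arrays. Without animal 3 the mean was 0.62 and the gene was still called. The pool arrays gave 1.15, 1.11, 0.95 and 1.41, a mean of 1.15 (2.22-fold). Setting the treated Cy3 signal against the saline Cy3 signal of the antiviral arrays gave 1.63, and centring on the array median gave 1.64.

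Cyp3a25 had log2 ratios of 0.43, 0.39, 0.85 and 0.38 in positive-control animals 1 to 4, with animal 3 again the highest. The lowest of them lay above the highest antiviral animal, at 0.25. The mean was 0.51 ± 0.225 (SD, n = 4), or 1.43-fold, with a pooled SE of 0.0946 and adjusted p = 0.000548 by limma. With the positive control fitted alone, the adjusted p was 0.0114 by limma. Saline Cyp3a25 was above background on 1 of the 4 arrays. On the pool arrays the ratio followed the dye: it was 0.41 and 0.51 with treated RNA in Cy3 and 0.17 and 0.12 with treated RNA in Cy5, for a mean of 0.30 (1.23-fold). The pool value was 0.00 with centring on the array median, 0.10 on Actb, Gapdh and Ppia, 0.37 on calibration spots and 0.44 on luciferase spots. The call on single animals was lost in the deposited series table (0.48, adjusted p = 0.226), where 2 of the 4 positive-control animals have no Cyp3a25 value.

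Cyp3a41a, the brightest of the 5 probes, had log2 ratios of 0.30, 0.04, 0.41 and 0.03 in positive-control animals 1 to 4. These overlapped with the antiviral animals, whose highest value was 0.30. The mean of 0.19 ± 0.193 (SD, n = 4, 95% interval -0.04 to 0.43, adjusted p = 0.177 by limma) did not pass. The pool arrays gave 0.51, 0.29, 0.50 and 0.49, a mean of 0.45 (1.36-fold). In positive-control animal 3 and on the first pool array all 3 treated spots were saturated, so those 2 ratios may be too low.

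The Cyp3a41a value depended on the normalization more than that of any other member. Where an array was shifted by 1 constant in place of the intensity-dependent loess curve, Cyp3a41a was 1.66 (array median), 1.16 (calibration spots), 1.18 (luciferase spots) and 1.23 (Actb, Gapdh and Ppia), and it was called each time (highest adjusted p = 1.71e-05 by limma). It was also called in the deposited series table (0.65, adjusted p = 0.0438) and with the dye effect taken from the pool arrays (0.30, adjusted p = 0.0377). On the pool arrays the same 4 shifts gave 0.86, 1.23, 1.30 and 0.96. When the treated Cy3 signal was set against the saline Cy3 signal of the antiviral arrays the value was -0.25 (adjusted p = 0.102). Over 16 alternatives it ranged from -0.25 to 1.66 and was called in 6, so neither its size nor its sign is settled by these arrays. By contrast, Cyp2b10 (1.53 to 2.28), Cyp2b13 (0.83 to 1.78) and Cyp3a13 (0.84 to 1.64) were called in 16 of 16.

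**Figure D2:**
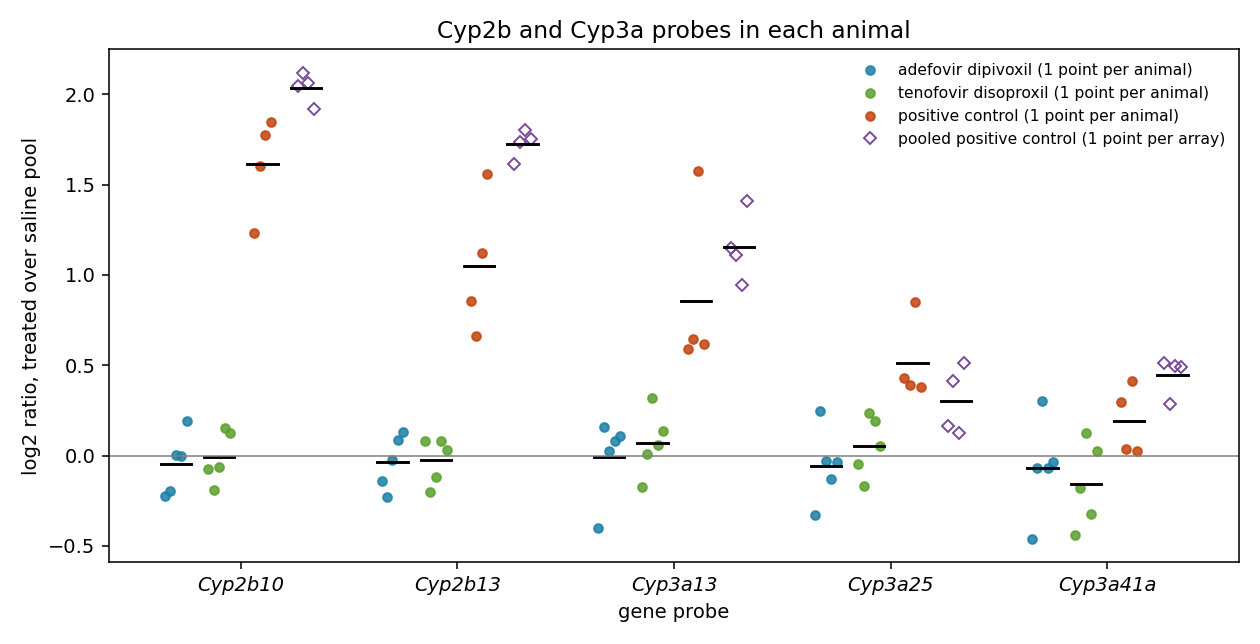
Log2 ratio of treated over saline pool for the 5 probes, with 1 filled point per animal in the 3 treatment groups, 1 open diamond per pool array, and a black line at the mean of each group. The positive-control animals lie above every antiviral animal for Cyp2b10, Cyp2b13, Cyp3a13 and Cyp3a25 and overlap with them for Cyp3a41a. The share of all probes that separate in this way was not counted.

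**Figure D3:**
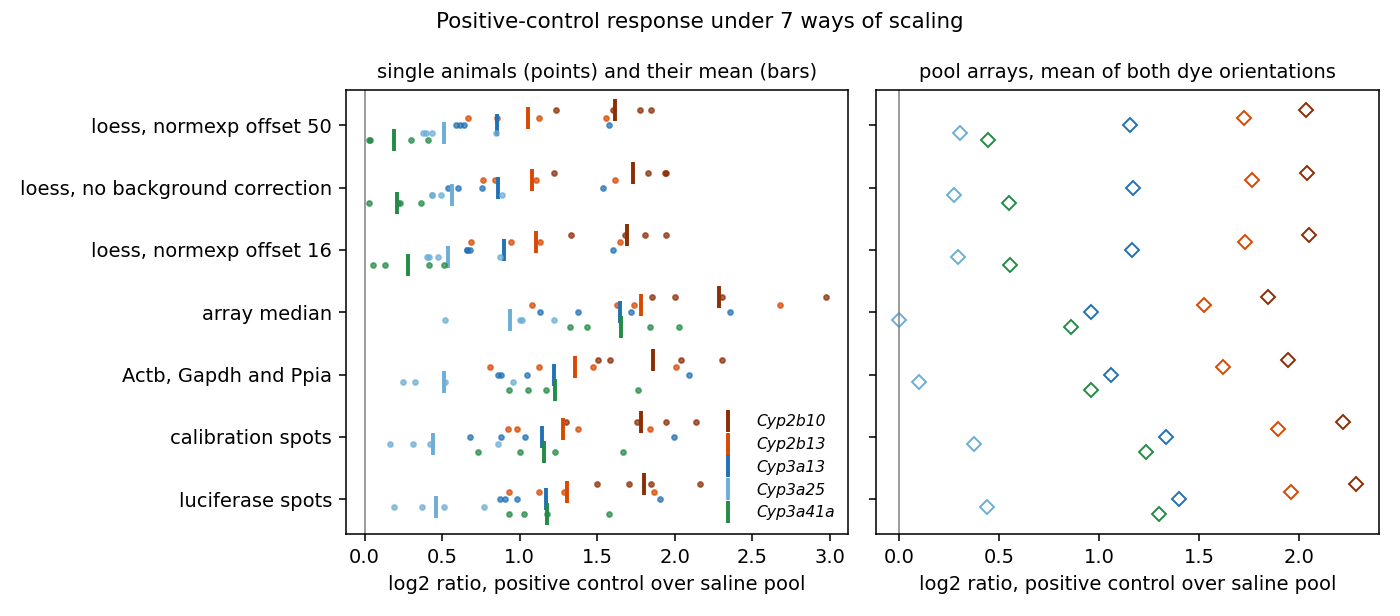
Log2 ratio of the positive control over the saline pool under 7 ways of background correction and scaling, for single animals (points, with their mean as a bar) and for the pool arrays (diamonds, mean of both dye orientations). Cyp3a41a moves from 0.19 with loess to 1.16 or more with each constant shift, while Cyp2b10 has the highest mean in each of the 7.

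Set directly against the antiviral animals, the positive control was higher for the same 4 genes. The saline pool is shared, but its dim Cy5 signal on the positive-control arrays does not cancel. There it was above background on 0, 1, 2 and 1 of 4 arrays for these genes. By the treated Cy3 channel alone, without saline signal, they differed by 1.64, 1.45, 1.59 and 0.31 and were called by limma, and Cyp3a41a (-0.05) was not. Limma called 4 of 5 members higher, with 20% of all probes called higher, and 0 of 5 lower, with 16.7% called lower. The difference was 1.64 for Cyp2b10 (95% interval 1.40 to 1.88, adjusted p = 2.63e-08), 1.08 for Cyp2b13 (0.80 to 1.36, adjusted p = 1.36e-05) and 0.82 for Cyp3a13 (0.47 to 1.18, adjusted p = 0.00117). Cyp3a25 differed by 0.51 (0.28 to 0.75, adjusted p = 0.0022), but it was not called when arrays were centred on calibration spots (0.33, adjusted p = 0.221) or luciferase spots (0.39, adjusted p = 0.0745), nor in the deposited series table (0.45, adjusted p = 0.299). Cyp3a41a differed by 0.31 (0.03 to 0.59, adjusted p = 0.0869), did not pass, and was called in 8 of 15 alternatives and without adefovir animal 3 (0.35, adjusted p = 0.0322). The comparison shares its positive-control animals with the test against saline and is not independent of it.

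**Figure D4:**
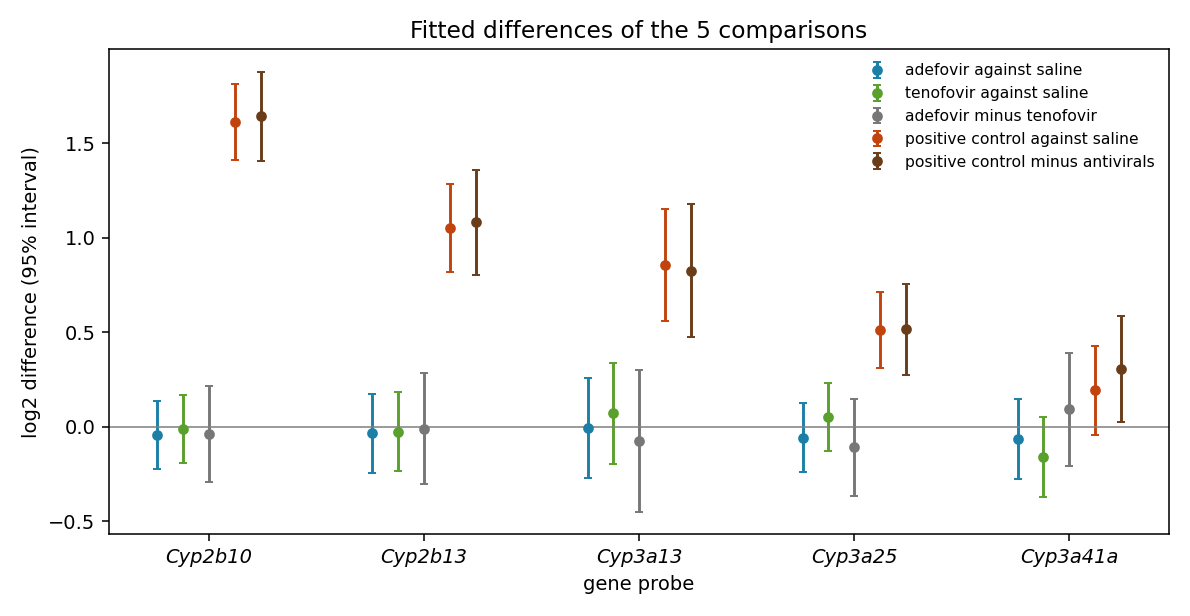
Fitted log2 differences of the 5 probes in the 5 comparisons, with 95% intervals from limma over 14 animals. The intervals of both antivirals against saline and of their difference include 0 for every probe, and those of the positive control against saline exclude 0 for 4 of the 5.

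Ranked by the mean ratio in single positive-control animals, the order was Cyp2b10, Cyp2b13, Cyp3a13, Cyp3a25 and Cyp3a41a. The order is a description of fitted ratios, since saline Cyp2b10 was above background on 0 of these 4 arrays and saline Cyp2b13 and Cyp3a25 on 1 each, so differences that involve them are uncertain in size. Neighbours were compared within each animal, where 4 animals cannot give a two-sided exact sign-flip p below 0.125. Because the order was taken from these same 4 animals, each mean difference is positive by construction. The p-values and counts of animals below are therefore no support for the order. Cyp2b10 exceeded Cyp2b13 by 0.56 ± 0.294 (SD, n = 4, exact p = 0.125), in 4 of 4 animals. Cyp2b13 exceeded Cyp3a13 by 0.19 ± 0.579 (SD, n = 4, exact p = 0.625), in 3 of 4 animals, so these neighbours did not differ beyond their spread. Cyp3a13 exceeded Cyp3a25 by 0.34 ± 0.259 (SD, n = 4, exact p = 0.125) and Cyp3a25 exceeded Cyp3a41a by 0.32 ± 0.130 (SD, n = 4, exact p = 0.125), each in 4 of 4 animals. Adjusted over the 4 pairs, the exact p was 0.167 for 3 of them and 0.625 for Cyp2b13 and Cyp3a13, and none passed 0.05. Without animal 4 Cyp3a13 moved above Cyp2b13. On the pool arrays Cyp3a41a stood above Cyp3a25. With the 4 constant shifts Cyp3a41a stood at place 3, above Cyp3a13, by 0.01. A constant shift cancels between probes of an array, so all 4 must give the same order and count as 1 result. In the deposited series table Cyp3a13 stood above Cyp2b13 and Cyp3a41a above Cyp3a25. With the treated Cy3 signal set against the saline Cy3 signal of the antiviral arrays, Cyp3a13 (1.63) stood above Cyp2b10 (1.57) and Cyp2b13 (1.45).

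Of 21 receptors, partners and coregulators of the CAR and PXR system listed, 11 had a probe. After the positive control 0 rose, 2 fell and 9 did not pass, and their median was -0.04 against 0.00 over all probes. Of all probes, 21.7% were called higher and 20% lower, so 2 of 11 lower lies near the share of all probes. Cebpa, a transcription factor of hepatocytes, fell by 0.41 (n = 4, pooled SE 0.133, adjusted p = 0.0221 by limma). Ppargc1a, a coactivator of fasting metabolism, fell by 0.38 (n = 4, pooled SE 0.0941, adjusted p = 0.00457 by limma). Their saline signal was above background on 1 and 0 of the 4 arrays, so the sizes are uncertain; on the pool arrays, where it was on 4 and 3, the ratios were -0.29 and -0.24. Nr1i3, which encodes CAR, had a log2 ratio of -0.04 (adjusted p = 0.754). Its treated signal was above background on 4 of 4 arrays and its saline signal on 0. Nr1h4, the bile acid receptor FXR, had -0.17 and was not called, with the treated signal above background on 4 and the saline signal on 0. Rxra, the binding partner of CAR and PXR, its relative Rxrb and the corepressor Ncor1 were above background on 1, 1 and 2 treated and on 0 saline arrays, and Nr3c1, Nr0b2 and Vdr on none in either channel, so the ratios of these 6 say little about a response. None of the 11 passed after either antiviral.

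Of 23 other CAR and PXR targets listed, 5 were measured, and after the positive control 1 rose, 1 fell and 3 did not pass. Of all 120 probes, 21.7% were called higher and 20% lower, so counts of 1 of 5 lie near these shares. Abcc3, an export pump for conjugates in the basolateral membrane, rose. Its log2 ratio was 1.18 (n = 4, pooled SE 0.121, adjusted p = 1.53e-06 by limma) and 1.37 on the pool arrays. Its saline signal was not above background on the 4 single-animal arrays, so no fold is given. Alas1, the first enzyme of heme synthesis, fell by 1.02 (n = 4, pooled SE 0.179, adjusted p = 0.000345 by limma). Its saline signal was above background on 1 of the 4 single-animal arrays, so the size is uncertain. Alas1 had -1.09 on the pool arrays. Cyp2a4, a steroid hydroxylase, had 0.34 (adjusted p = 0.0563) on single animals and 0.94 on the pool, the canalicular pump Abcc2 had -0.06 and the drug efflux pump Abcb1a -0.27 (adjusted p = 0.0523). Saline Cyp2a4 was above background on 1 of the 4 single-animal arrays, and saline Abcc2 and Abcb1a on 0, so these sizes are uncertain too. None of the 5 targets passed after either antiviral.

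The 2 measured genes of the aryl hydrocarbon receptor list, of 6 listed, both rose in the positive control. There 21.7% of all 120 probes were called higher and 20% lower. Cyp1a2 had 2.31 (n = 4, pooled SE 0.142, adjusted p = 7.22e-09 by limma). Cyp1a1 had 2.15 (n = 4, pooled SE 0.214, adjusted p = 1.37e-06 by limma). Saline Cyp1a1 was below background on all arrays of the antivirals, the positive control and the pool. Hepatocyte markers moved in both directions in the same animals: Cyp2e1 fell by 1.45 and Slc10a1 by 0.70, Cyp8b1 rose by 0.70, and Abcb11, Cyp27a1 and Hnf4a did not pass. Saline Cyp8b1 was above background on 0 of the 4 arrays and saline Slc10a1 on 1, whereas saline Cyp2e1 was on 4. Cyp7a1 passed at -0.21 with the treated signal above background on 1 array and the saline signal on 0, and on the pool arrays, where neither was above background, it had -0.02. The part of a change in hepatocyte share in the members' values was not tested.

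Over the 14 animals, the gene outside the 5 members whose ratios lay closest to those of Cyp2b10, Cyp2b13 and Cyp3a13 was Abcc3 in each case. Closeness was the root mean square difference in log2 ratio, taken over 60 other probes with a platform name that were above background in a channel on most arrays. It was 0.355 for Cyp2b10, 0.282 for Cyp2b13 and 0.263 for Cyp3a13, and the next gene for all 3 was Cyp2a12 (0.602, 0.352 and 0.400), a P450 with a positive-control ratio of 0.58. Next came Cyp1a2 for Cyp2b10 (0.620), Mvk for Cyp2b13 (0.364) and Lipa for Cyp3a13 (0.407). Cyp3a25 lay closest to Abca1 (0.236), Lipa (0.236) and Nr5a2 (0.248), and Cyp3a41a to Abca1 (0.212), Dhcr7 (0.244) and Nr5a2 (0.282). Among the members the closest pair was Cyp3a13 with Cyp3a25 (0.244) and the farthest Cyp2b10 with Cyp3a41a (0.807). Cyp2b10 lay closer to Cyp2b13 (0.337), and Cyp3a13 to Cyp3a25, than either did to Abcc3. These distances are descriptions of arrays that share 1 saline pool.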

How the data were processed

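Median spot intensities of the treated and saline channels, with the local background, were used as deposited by the authors in 28 scanner files. They are raw values, per the file headers; image software: not given in the sources used here. The authors' deposited series table of log2 ratios served as an alternative; its arrays correlated with the scanner values at 0.677 to 0.965, its column medians ran from -1.54 to 0.936, and its normalization is unknown.

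With R 4.3.3 and limma 3.58.1, background was corrected by normexp (offset 50), and each array was normalized by loess (span 0.3) over gene spots (control spots at weight 0). The 3 spots of a probe were averaged, ratios were turned to treated over saline from the dye labels, and the 2 dye-exchanged arrays of an antiviral animal were averaged. The dye effect per probe from those exchanges (SD 0.137) was taken off the ratios of single positive-control animals, whose treated RNA was always in Cy3. One mean per group was fitted over 14 animals with eBayes, with Benjamini-Hochberg adjustment over 120 probes at 0.05. The 4 pool arrays were repeats of pooled RNA and entered no test. The fit was tested on simulated data.

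The platform named 110 probes. The symbols of 115 probes matched a current RefSeq symbol and those of 3 a synonym. Named genes are the members, the measured genes of the lists, and the 3 closest genes per member. Hepatocyte, aryl hydrocarbon receptor, CAR and PXR lists and the members were chosen with earlier results of these data known. Of 5 steroidogenic markers 3 were measured; the saline channel of 20 antiviral arrays was above background for Cyp11a1 and Star on 0 and for Cyp21a1 on 4. The lowest correlation between arrays of 1 orientation was -0.27, and no 2 channels held identical values. Saturated gene spots, up to 6 per array and channel, were kept. Precision is limited by the number of arrays.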

Additional observations from a re-analysis of the deposited data

Results flagged for a closer look

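In 3 of the 15 combinations of member and treatment group, 1 animal lay far from the others of its group by Dixon's gap test, which flags about 1 in 20 such groups by chance. Cyp3a13 in adefovir animal 1 had a log2 ratio of -0.40 where the other 4 animals ran from 0.02 to 0.16. Cyp3a13 in positive-control animal 3 was at 1.58 where the others ran from 0.59 to 0.64. Cyp3a25 in the same animal was at 0.85 where the others ran from 0.38 to 0.43. Without that animal the means were 0.62 for Cyp3a13 and 0.40 for Cyp3a25, and both genes were still called by limma.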

How the results depend on the processing

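Cyp2b10, Cyp2b13 and Cyp3a13 stayed called higher in the positive control in all 16 alternatives against saline and all 15 against the antivirals, and with each of the 14 animals left out. Cyp3a25 was called in 15 of 16 and 12 of 15, and Cyp3a41a in 6 of 16 and 8 of 15, with the values given above; the causes were not tested. The number of members that changed place in the order was 3 with each of the 4 constant shifts, 3 with treated Cy3 against saline Cy3 of other arrays, 4 in the deposited table, 2 on the pool arrays, 0 in the other alternatives run and 0 to 2 with a positive-control animal left out. Animal numbers were not used as pairs across groups in the main fit. Deviations of same-numbered animals correlated at -0.437 to 0.375, and whether the numbers mark a shared factor was not tested. With the number as a replicate block, Cyp3a41a in the positive control against the antivirals was called (0.33, adjusted p = 0.0206), 5 of 5 members were called there and 4 of 5 against saline, and no other member's call changed.

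Counts over all probes moved more. In the positive control against saline 26 were called higher, with 8 (deposited table) to 31 (no background correction) over the alternatives, and 24 lower, with 10 (array median) to 80 (luciferase spots). Against the antivirals 24 were higher (6 to 34) and 20 lower (13 to 80). After adefovir 0 were higher (up to 10) and 2 lower (0 to 7), and after tenofovir 0 higher (up to 17) and 2 lower (2 to 12). The rescaled pool arrays, and the order under alternatives other than the array median, no background correction, no dye effect, the pool and left-out animals, were added after the data had been seen. Dim saline signal in the arrays of single positive-control animals limits every fold there.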
